A study of Lathyrus oleraceus with 4 samples.

Results

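Histone transcripts were read through 5 probes of a pea oligonucleotide array, C0189 (histone H4 variant), S0497 (germinal histone H4), C0414 (histone H2A.1), S0138 (histone H3) and S0277 (linker histone H1), in the shoot apical meristem (SAM) and in non-meristem tissue (NM). The 5 are among 2234 probes on the array, were taken by their clone names, and were all found in the deposited tables. The study had listed these transcripts as more abundant in the SAM on the same arrays, so their SAM/NM ratios are given as a description and without a test. The files carry clone names only, and the histone names reach the clones through a match of the study's listed values to these arrays. SAMs without leaf primordia were micro-dissected from 10-day-old garden pea, cultivar Torsdag, about 80 SAMs to an extraction, and NM was primary stem, primary root and mature leaf of plants of the same kind. Both tissues of 1 collection were hybridized together on 1 sector of a CombiMatrix chip, and each of the 4 sectors, used as 4 arrays, held an independent collection. SAM RNA carried Cy3 and NM RNA Cy5 on sectors 1 and 3, with the dyes exchanged on sectors 2 and 4. The NM of the array pools several organs, so no value below belongs to a single organ.

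The core histones H2A, H2B, H3 and H4 form the protein spool around which nuclear DNA is wrapped, and linker histone H1 binds the DNA where it enters and leaves that spool. Most histone transcripts are made while a cell copies its DNA and are scarce in cells that have stopped dividing. The SAM is a dome of small dividing cells that gives rise to the shoot, whereas mature leaf lamina and stem consist largely of cells that have left the cell cycle. In such bulk samples, a larger share of cells that carry a transcript and more of that transcript per cell cannot be told apart.

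Leaf and dividing-cell markers were read on probes with GenBank names. The 4 photosynthesis probes, which mark leaf tissue, were lower in the SAM on all 4 arrays, with mean log2 SAM/NM ratios from -2.90 for oxygen-evolving enhancer protein 3 (AY292531) to -1.35 for the photosystem II protein CP47 (AY007467). The 3 probes taken as markers of dividing cells were higher in the SAM on all 4 arrays, at 2.00 and 1.90 for proliferating cell nuclear antigen (PCNA; Y16796 and AB008186) and 0.99 for cyclin D (AB008188). The study had also selected these transcripts on the same arrays, and the direction it assigns to probes with GenBank names set the reading of the channels, so these values are no independent check of the tissue labels. The array files give their channels numbers and no dyes, and every direction below takes the first channel to be Cy5. The sample labels name Cy3 before Cy5, and were the first channel Cy3, every sign would turn round and the leaf probes would stand higher in the SAM. The median probe intensity lay between 170.2 and 792 in SAM channels and between 259 and 467 in NM channels. The brightest blank spot, at 173.5, was a SAM spot of sector 4, where the SAM median was 792. On sector 2, where the SAM median was 170.2, the brightest SAM blank was at 53. In its own channel and array, every probe was above the brightest blank. The 4 arrays limit the precision of every ratio.

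All 5 histone probes gave more normalized signal from SAM than from NM on every array. The mean ratio was 5.93 for the H4 variant C0189, 4.38 for histone H3 (S0138), 3.67 for histone H2A.1 (C0414), 3.36 for the germinal histone H4 (S0497) and 2.02 for linker histone H1 (S0277). A log2 ratio above 0 on all 4 arrays was shared by 17.9% of all probes. All 5 were called higher in the SAM by limma (adjusted p under 0.05 and a ratio above 1.3), as were 9.76% of all probes, and 0 of the 5 lower, against 7.34% of all probes. Nothing is read from these counts because the same contrast chose the 5. No probe intensity of these histones was as dim as a blank spot. The weakest was the NM signal of S0497, which was 3.05 times the brightest blank in the same channel of the array.

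**Figure D1:**
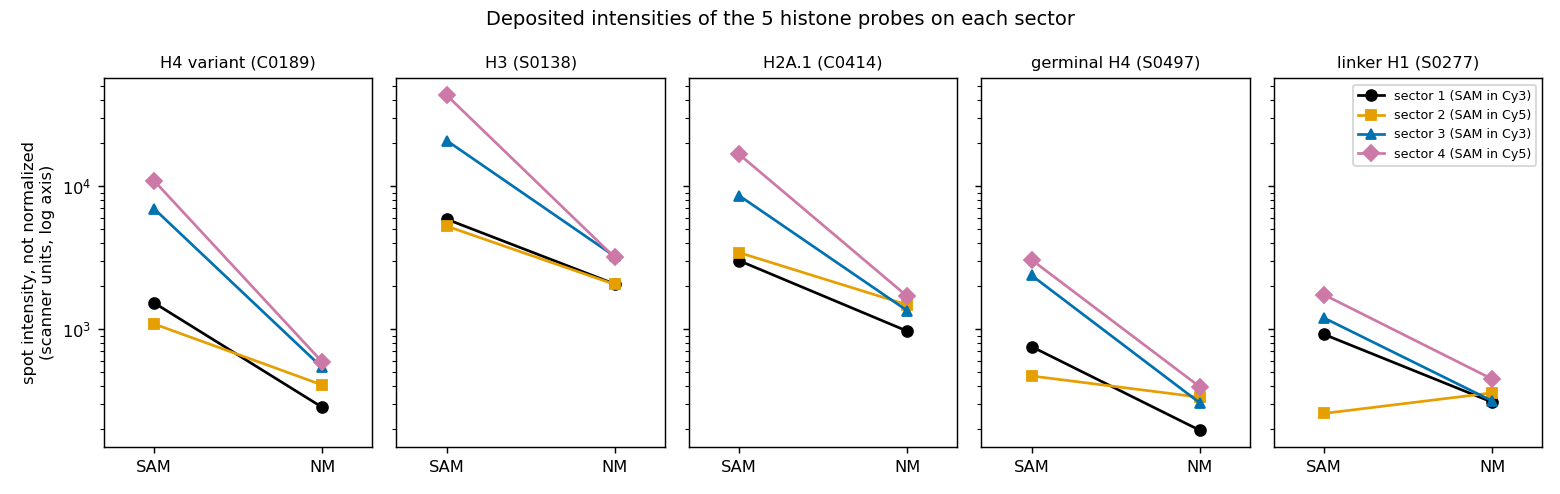
Deposited intensities, not normalized, of the 5 histone probes in SAM (left of each panel) and NM (right) on a log axis in scanner units, with a line for each of the 4 sectors. SAM lies above NM in every panel except on sector 2 for linker H1, where SAM was at 257.5 and NM at 358.5.

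The H4 variant C0189 had SAM intensities of 1527, 1087.5, 6953.5 and 10911 on sectors 1 to 4, against NM intensities of 285, 407.5, 540 and 592. SAM and NM did not overlap, and the lowest SAM value exceeded the highest NM value although no scale had been set between arrays. How many of all probes were apart in this way was not counted. The median probe was also brighter in SAM than in NM on sectors 1, 3 and 4, and dimmer on sector 2. Nothing is therefore read from such a separation, here or for the histones below. After normalization within arrays the log2 SAM/NM ratio of C0189 was 2.07, 2.19, 3.16 and 2.86 on sectors 1 to 4. Its mean was 2.57 ± 0.52 (SD, n = 4 arrays). Histone H4 is among the most conserved proteins of eukaryotes and pairs with H3 in the core of the spool. Only 2 of the 2234 probes had a higher mean ratio than C0189, and on single arrays its place among all probes ran from 3rd on sectors 2 and 4 to 8th on sector 1.

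The germinal histone H4 probe S0497 had SAM intensities of 754, 470.5, 2376 and 3051.5 on sectors 1 to 4, against NM intensities of 197, 334.5, 306 and 396.5. Here too every SAM value was above every NM value. Its normalized log2 ratio was 1.28, 1.51, 2.25 and 1.94 on sectors 1 to 4 (mean 1.75 ± 0.43, SD, n = 4 arrays). Both H4 probes thus stood higher in the SAM, but by different amounts. C0189 exceeded S0497 by 0.79, 0.68, 0.91 and 0.92 on sectors 1 to 4, a mean of 0.82 ± 0.11 (SD, n = 4 arrays), or 1.77-fold in ratio. This difference varied less between arrays than the ratio of either H4 probe.

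The H2A.1 probe C0414 had SAM intensities of 3013, 3431.5, 8586 and 16707 on sectors 1 to 4, against NM intensities of 970.1, 1481, 1349 and 1702. SAM and NM were again apart over all arrays. The normalized log2 ratio was 1.76, 1.63, 2.35 and 1.76 on sectors 1 to 4 (mean 1.88 ± 0.32, SD, n = 4 arrays). Histone H2A joins H2B on the outside of the H3 and H4 core. Sector 3 stood above the other arrays for this probe.

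Histone H3, the partner of H4 and the carrier of many regulatory methyl and acetyl marks on its tail, was read by S0138. It had SAM intensities of 5876, 5257, 20858 and 43284 on sectors 1 to 4, against NM intensities of 2072, 2058, 3240 and 3183. Its spot was the brightest of all SAM spots on sectors 2, 3 and 4 and the 3rd brightest on sector 1, which describes the spot and not the amount of the transcript. The normalized log2 ratio was 1.97, 1.70, 2.78 and 2.08 on sectors 1 to 4 (mean 2.13 ± 0.46, SD, n = 4 arrays). Only 34 probes lay within 1 log2 unit of its mean signal, so the normalization curve rests on few probes at this brightness. On sector 4 its log2 ratio was 2.08 after normalization and 3.76 before it, the largest shift of any of the 5 probes on any array.

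Linker histone H1 (S0277) had SAM intensities of 919, 257.5, 1197 and 1738 on sectors 1 to 4, against NM intensities of 309, 358.5, 315 and 448. On sector 2 the SAM value was below the NM value, a ratio of 0.718 before normalization, and SAM and NM intensities overlapped across arrays for this histone alone among the 5. On sector 2 the median SAM probe was at 170.2 and the median NM probe at 397, and after normalization the log2 ratio of H1 on that array was 0.69. It was 1.10, 1.20 and 1.06 on sectors 1, 3 and 4, so that the mean was 1.01 ± 0.23 (SD, n = 4 arrays). After normalization H1 had both the smallest mean and the smallest SD between arrays of the 5 histones. Without normalization within arrays the mean of H1 was 1.24 ± 1.16 (SD, n = 4 arrays), and it was not called higher (limma adjusted p = 0.236). The smallest SD of the 5 was then that of C0414, at 0.95.

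**Figure D2:**
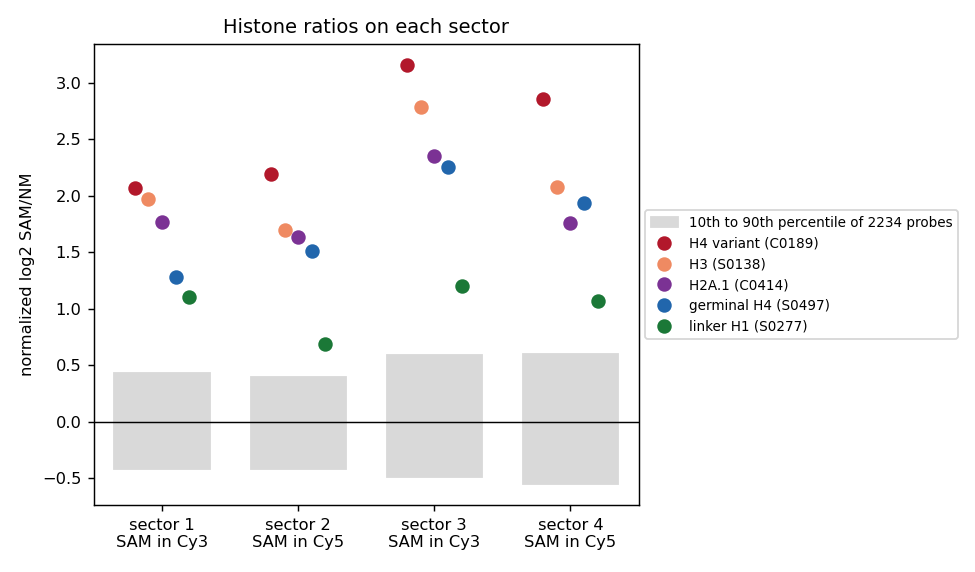
Normalized log2 SAM/NM ratio (vertical axis) of the 5 histone probes on each of the 4 sectors, with the grey box spanning the 10th to 90th percentile of all 2234 probes on that array. C0189 is the highest and S0277 the lowest of the 5 on each array, and all points lie above the grey boxes, whose upper edges are between 0.40 and 0.60.

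The order of the 5 ratios was nearly the same on each array. The H4 variant C0189 was the highest of the 5 and histone H3 (S0138) the second on all 4 arrays, and linker histone H1 (S0277) was the lowest on all 4. H2A.1 was above the germinal H4 on sectors 1, 2 and 3 and below it on sector 4. S0497 minus C0414 was -0.13 ± 0.27 (SD, n = 4 arrays), so these neighbours in the order did not differ beyond their spread. C0189 exceeded S0138 by 0.44 ± 0.28 and S0138 exceeded C0414 by 0.26 ± 0.15 (SD, n = 4 arrays each), both in the same direction on every array. The widest gap between neighbours lay above H1, where S0497 exceeded S0277 by 0.73 ± 0.38 (SD, n = 4 arrays), with 0.18 on sector 1 and between 0.82 and 1.05 on the others. The 4 core histone probes were above H1 on each array. An exact sign-flip test over 4 arrays cannot give a two-sided p below 0.125, and these differences are given without one.

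All 5 histones had their highest ratio on sector 3. On that array their log2 ratios ran from 1.20 to 3.16 with a median of 2.35, against medians of 1.76, 1.63 and 1.94 on sectors 1, 2 and 4. Of all probes, 26.3% were highest on sector 3, but 1852 of the 2234 were not called in either direction. Among probes that were also higher in the SAM, 9 of 11 other histone probes and 7 of 11 replication and cell-cycle probes were highest on sector 3. A peak on sector 3 was thus not particular to the 5 histones. The spread of all log2 ratios, as the median absolute deviation, was 0.32 on sector 3, between 0.26 on sector 2 and 0.36 on sector 4. The 90th percentile of all log2 ratios was 0.43, 0.40, 0.59 and 0.60 on sectors 1 to 4. Whether the scale of the array lies behind the high ratios on sector 3 was not tested. The part of sector 3 in the ratios was measured by leaving it out, after which the mean log2 ratio was 2.37 for C0189, 1.92 for S0138, 1.72 for C0414, 1.58 for S0497 and 0.95 for S0277. Means over the arrays with SAM in Cy3 and over those with SAM in Cy5 were 2.61 and 2.52 for C0189 and 1.77 and 1.73 for S0497. They lay further apart for S0138, at 2.38 and 1.89, for C0414, at 2.06 and 1.69, and for S0277, at 1.15 and 0.88.

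The dye term is estimated independently of the tissue ratio in this balanced layout, and it was tested. Fitted beside the tissue term, it was -0.24 for S0138 (standard error 0.15, limma adjusted p = 0.361), -0.18 for C0414 (standard error 0.11, limma adjusted p = 0.363) and -0.14 for S0277 (standard error 0.09, limma adjusted p = 0.380) on the log2 scale of Cy5 over Cy3. For C0189 and S0497 it was -0.04 and -0.02 (limma adjusted p = 0.909 and 0.952). Without sector 3, where SAM was in Cy3 and the histone ratios were highest, it was -0.043 for S0138, -0.035 for C0414 and -0.114 for S0277. It was then 0.227 for C0189 and 0.220 for S0497. The dye split therefore cannot be told apart from the high ratios on sector 3. Centred on the median in place of the robust spline, the dye term was 0.67 for S0138, 0.49 for C0414, 0.31 for C0189, 0.07 for S0497 and -0.07 for S0277. Its sign thus depended on the normalization for every histone but S0277. With the robust spline, none of the 5 histones was called by limma at an adjusted p under 0.05, where 0.224% of all probes (5 of 2234) were called. At an unadjusted p under 0.05 there were 0 of the 5 histones and 23.1% of all probes. The fit that called the 5 higher had no dye term, so a dye effect would have widened their spread and weakened that call. Low dye counts among the 5 can follow from their selection, and nothing is read from them. The dye terms were smaller than the tissue ratios of the same probes, of which the lowest was 1.01. Nothing is read from that, because the probes were chosen from those with high tissue ratios.

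The clone letter names the cDNA library of a probe. C0189 and C0414 came from the standard library, made from SAM RNA without enrichment, and S0138, S0497 and S0277 from the subtracted library, made with SAM cDNA as tester and NM as driver. Against the probes of their own library, C0189 had a higher ratio than 99.0% and C0414 than 96.6% of the 290 standard probes. S0138 was above 99.0%, S0497 above 97.0% and S0277 above 91.2% of the 296 subtracted probes. The median log2 ratio was 0.08 in the standard and 0.10 in the subtracted library. Around each spot, the probes within 3 rows and 3 columns (24 for S0497, 41 to 48 for the others) had median log2 ratios from -0.05 to 0.02. These medians use the mean ratios over the 4 arrays, and raised regions on single arrays were not tested.

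A further 11 probes carry the name of histone H1, H2A, H2B, H3 or H4 in the study's list of transcripts more abundant in the SAM, and all 11 were called higher here. Because that list was chosen on these arrays, the count is no independent evidence of its direction. Their log2 ratios ran from 0.58 to 2.31 around a median of 1.58, against medians of 1.88 for the 5 histones and -0.004 for all probes. Including the 5, the 16 histone probes came from the standard library (7) and the subtracted library (9), and 0 came from the normalized library. That library supplied 1095 of the array's probes but only 52 of the 218 called higher here. The list holds only transcripts that the study found higher in the SAM, so histone probes outside it were not counted. On sector 3, 9 of the 11 had their highest ratio, as all 5 histones had.

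Within 1 histone class the probes differed. Among the 7 H2A probes, C0414 (H2A.1) lay between S0916 with a log2 ratio of 2.31 ± 0.50 and S0364 with 0.58 ± 0.31 (SD, n = 4 arrays each). C0178, annotated as H2A.2, was close to C0414 at 2.02 ± 0.44 (SD, n = 4 arrays), and the other H2A probes were S0426 at 1.67, C0167 at 1.55 and S0012 at 1.11. The accession behind S0916 is called a histone H2A in the study's supplementary list and a ribosomal protein in its text, and which of these holds was not tested.

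Of the H3 probes, C0415 had a log2 ratio of 2.01 ± 0.35 and C0340, annotated as H3.2, had 1.46 ± 0.24 (SD, n = 4 arrays each), both below S0138. The other H4 probe, S0472, has the same wheat H4 variant annotation as C0189. Its log2 ratio was 1.47, 0.80, 2.09 and 1.95 on sectors 1 to 4 (mean 1.58 ± 0.58, SD, n = 4 arrays), below C0189 on every array and close to S0497.

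The H2B probe C0243, the histone class absent from the 5, had 1.31, 1.53, 2.44 and 2.34 on sectors 1 to 4 (mean 1.91 ± 0.57, SD, n = 4 arrays), within the range of the 4 core histones. The other H1 probe, S0955, had 0.09, 0.67, 0.77 and 1.22 on sectors 1 to 4 (mean 0.69 ± 0.47, SD, n = 4 arrays). The mean ratios of both H1 probes were below those of every H3 and H4 probe and of all H2A probes other than S0364. S0012 (1.11 ± 0.43, SD, n = 4 arrays) lay above S0277 by less than this spread, and on sector 1 S0277 (1.10) was above S0012 (0.76) and S0426 (1.04). Sector 1 was nearly without a difference for S0955. S0955 was no longer called when sector 2, 3 or 4 was left out (limma adjusted p = 0.0623, 0.0546 and 0.0976). A probe annotated as a histone-fold protein of the TFIID-TAF/NF-Y kind, C0290, which belongs to transcription factor complexes and not to the nucleosome, had 1.34 ± 0.38 (SD, n = 4 arrays).

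**Figure D3:**
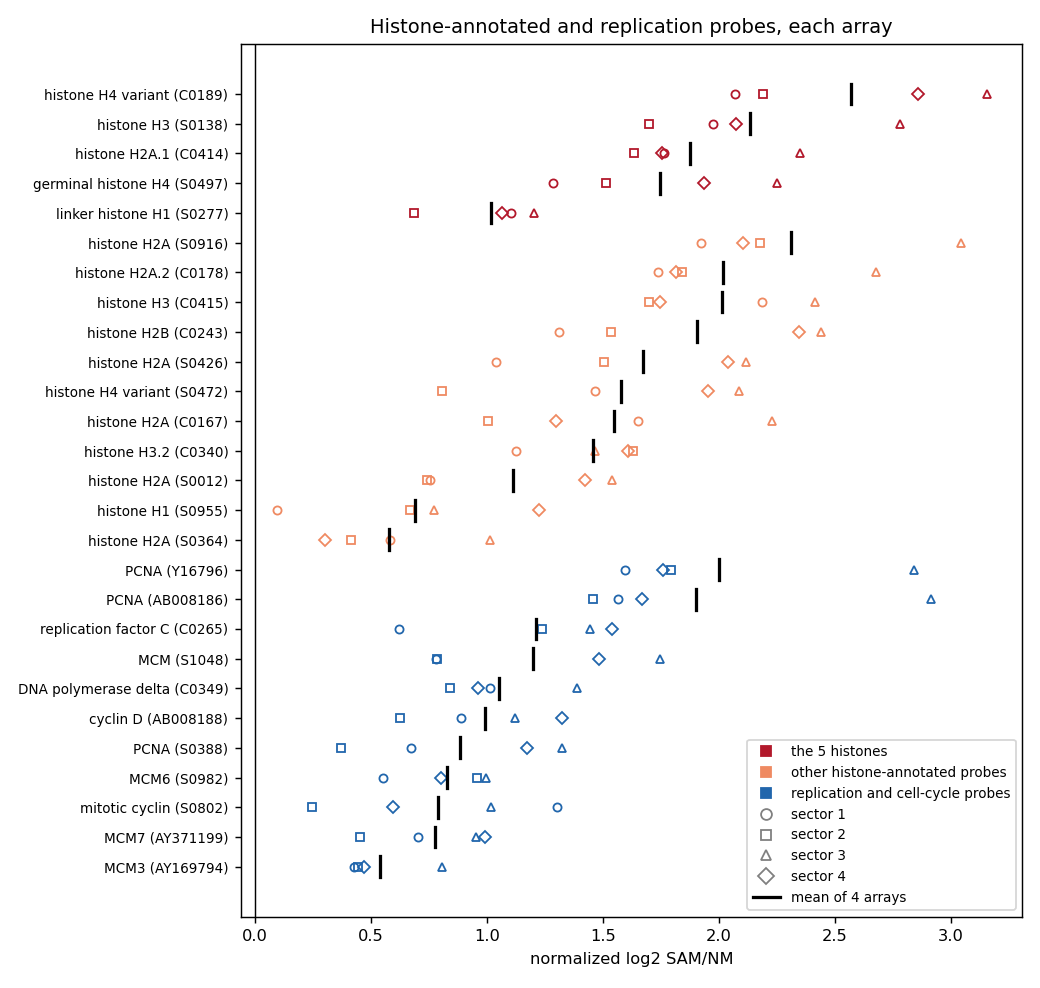
Normalized log2 SAM/NM ratio (horizontal axis) of the 5 histone probes, the 11 other histone-annotated probes and 11 replication and cell-cycle probes, with a symbol for each of the 4 sectors and a black bar for the mean. Every value is above 0, and sector 3 (triangles) is the highest for all 5 histones, 9 of the 11 other histones and 7 of the 11 replication probes.

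The transcripts that act beside histones when DNA is copied were read from a list that the study had likewise selected on these arrays. All 11 replication and cell-cycle probes passed the same call as higher, and their log2 ratios ran from 0.54 to 2.00 around a median of 0.99. The highest were the GenBank PCNA probes Y16796 (2.00 ± 0.57) and AB008186 (1.90 ± 0.68; SD, n = 4 arrays each), which read the clamp that holds DNA polymerase on the template. These stood beside the core histones, whereas the probes of the mini-chromosome maintenance (MCM) helicase, MCM3 (AY169794), MCM7 (AY371199), MCM6 (S0982) and a further MCM protein (S1048), had 0.54, 0.77, 0.83 and 1.20. DNA polymerase delta (C0349) was at 1.05 and replication factor C (C0265), which loads the clamp, at 1.21, both close to linker histone H1. A further PCNA probe (S0388) was at 0.88. The study prints more than 1 ratio for the accession behind S0388, and the ratio in its text is higher than the value here. The match to this clone uses its supplementary list. On the same scale cyclin D (AB008188) was at 0.99 and a mitotic cyclin (S0802) at 0.79. MSI1 (DQ026703) and MSI3 (S0462) belong to a family of histone-binding proteins that in Arabidopsis includes a subunit of the chromatin assembly factor, which places new H3 and H4 on DNA, and they had log2 ratios of 0.59 ± 0.32 and 1.07 ± 0.50 (SD, n = 4 arrays each).

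The probes nearest to each histone in their 4 array values were found by the root mean square difference of the log2 ratio. For S0138 they were C0178 (H2A.2; 0.20), Y16796 (PCNA; 0.25) and C0415 (H3; 0.27). For C0414 the nearest was N1328, a hypothetical protein (0.14), followed by C0178 (0.20) and C0415 (0.21). S0497 had S0144, with no annotation used here, at 0.07, N1188, annotated as a pathogenesis-related protein, at 0.14, and S0426 (H2A) at 0.15. C0189 stood further from all other probes, with S0094, also without annotation, at 0.27, S0916 (H2A) at 0.39 and S0138 at 0.50. For linker H1 no histone was among the nearest, which were S0855 (no BLASTX match; 0.12), C0194 (helicase; 0.12) and N1195 (Argonaute; 0.13). Each likeness covers 4 arrays and mainly reflects a similar mean.

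The normalization changed the size of the mean ratios and not their direction, as the plot of the ratios under each processing shows. On single arrays it did change the direction for linker H1 on sector 2, where the log2 ratio was -0.48 before and 0.69 after it. With the deposited log2 ratios in place of the robust spline, the means were 2.57 for C0189, 2.06 for S0138, 1.89 for C0414, 1.74 for S0497 and 1.00 for S0277. C0189 stayed the highest of the 5 on all 4 arrays under every normalization and background setting tried. S0277 stayed the lowest on 4 arrays, except that on sector 1 S0138 was lower under median centring alone and without any normalization. With a normexp background correction the germinal H4 was at 2.43 and H3 at 2.19, so the order of S0497 and S0138 depends on the background. Probe sequences were not used here, and near-identical histone genes that hybridize to the same probe cannot be told apart in these values.

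**Figure D4:**
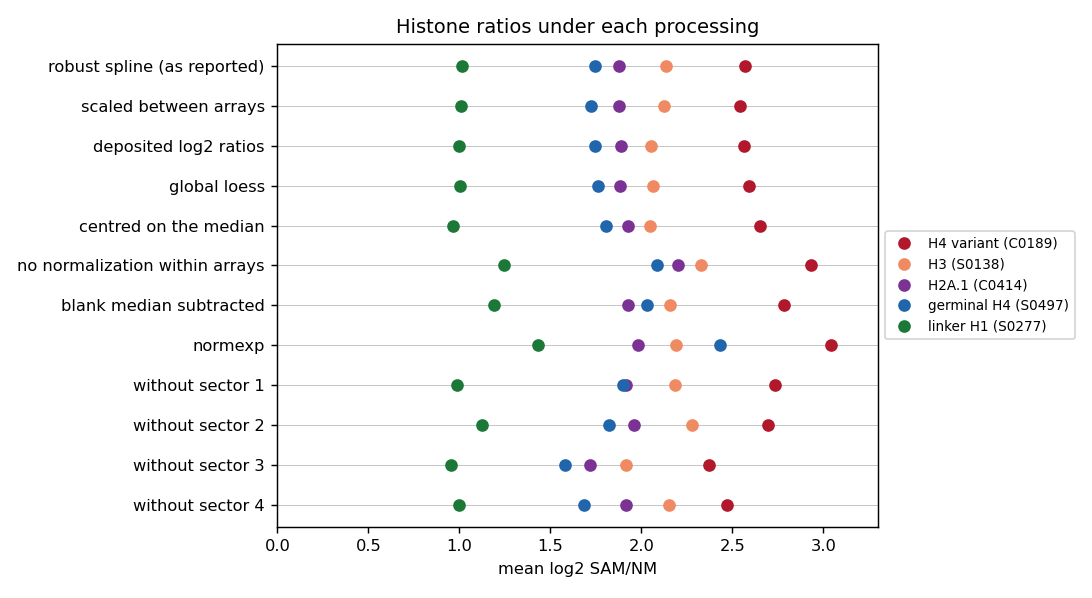
Mean log2 SAM/NM ratio (horizontal axis) of the 5 histone probes under the reported processing and 11 others, including each sector left out (means of the remaining arrays). All means lie between 0.95 and 3.04, with C0189 the highest and S0277 the lowest in each row.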

How the data were processed

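The authors hybridized SAM and NM RNA to 4 sectors of a CombiMatrix chip, scanned them on a GenePix scanner, quantified them with CombiMatrix Microarray Imager and deposited raw intensities, a single value for each spot in each channel with no background column. A deposited value table holds log2 ratios (first channel over second), with medians within 0.01 of 0. A global loess followed by scaling between arrays gave these to within 0.00603. Columns were mapped to samples by accession. Replicates 1 to 4 are sectors 1 to 4; the label of sector 1 carries no number, and the dyes given for it leave sector 1 as its place.

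The 6 blank spots of each array were dropped and 2234 probes were normalized within arrays by limma's robust spline, without background subtraction. The channel reading follows the direction the study assigns to probes with GenBank names. lmFit and eBayes (limma 3.58.1, R 4.3.3) gave the tissue and dye fits, with Benjamini-Hochberg adjustment over 2234 probes. A probe was called at an adjusted p under 0.05 together with the study's ratio limits, above 1.3 or below 0.7 (dye: adjusted p only). The fits were run on simulated data with independent noise, which checks the code and says nothing about these ratios. Python 3.11.15, pandas 2.3.3, numpy 2.4.6 and matplotlib 3.10.9 were used for summaries. The tables name library probes by clone, and annotations are given by EX accession. All 162 EX accessions of the up-regulated list were matched to clones through the published ratio and adjusted p, so closeness to these values is no evidence. The histones, the lists and the named probes (the histones, every listed probe, markers and, for each histone, the 3 nearest probes) were chosen with earlier results of these data known. Alternatives were other normalizations, background corrections, a dim-probe filter, the deposited ratios, the other channel reading and each array left out.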

Additional observations from a re-analysis of the deposited data

Results flagged for a closer look

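In 4 of the 34 probes examined for an array far from the other 3, sector 3 was the outlying array. None of the 5 histones was among them. About 1 in 20 groups is flagged by chance, and the 34 probes share the same arrays. The H2A.2 probe C0178 had a log2 SAM/NM ratio of 2.68 on sector 3, against 1.74 to 1.84 on the others. The PCNA probe Y16796 had 2.84 on sector 3, against 1.60 to 1.79, and the PCNA probe AB008186 had 2.92, against 1.46 to 1.67. MCM3 (AY169794) had 0.81 on sector 3, against 0.43 to 0.47.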

How the results depend on the processing

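The reported fit is already paired, since each ratio sets SAM against NM of 1 collection on 1 array, and no further block could be fitted. The dim-probe filter removed no probe, and subtraction of the blank median moved no value by more than the spread between arrays. Of all probes, 218 were called higher and 164 lower. Centred on the median, 128 were called higher and of the chromatin assembly probes 1; the H2A probes S0426 (log2 ratio 1.62, limma adjusted p = 0.0539) and S0364 (0.56, adjusted p = 0.0852) and the H1 probe S0955 (0.69, adjusted p = 0.140) lost their call with little change in ratio. Without normalization within arrays, 49 were called higher and 31 lower, and C0414 had a log2 ratio of 2.20. S0277, at 1.24, lost its call (limma adjusted p = 0.236). Then 3 of the 11 replication probes (median 1.27) and 0 of the assembly probes were called. Among the other histones S0012 (1.45), S0364 (0.84) and S0955 (0.97) lost their calls at higher ratios. With normexp, S0497 was at 2.43 and S0277 at 1.43, C0189 exceeded S0497 by 0.61, S0138 minus S0497 turned to -0.24, S0497 and S0138 stood above 98.6% and 97.6% of the subtracted probes, and the medians were 1.41 for replication and 1.27 for assembly probes. The count of dye calls, 5, was 2 under global loess, 0 when centred on the median or not normalized, 25 after scaling between arrays, 28 in the deposited ratios and 3 with normexp; none was of the 5 histones (lowest adjusted p 0.103 over all settings).

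Leaving out each array in turn gave 0 to 9 dye calls (0 without sector 2 or 4, 9 without sector 1 or 3) and 168 to 218 probes called higher. The log2 ratio was 2.37 to 2.74 for C0189, 1.92 to 2.28 for S0138, 1.72 to 1.96 for C0414, 1.58 to 1.90 for S0497 and 0.95 to 1.12 for S0277, and S0138 stood above 98.6% to 99.0% of the subtracted probes. With the first channel read as Cy3, the log2 ratios were -2.57 for C0189, -2.13 for S0138, -1.88 for C0414, -1.75 for S0497, -1.01 for S0277 and -1.58 for the median of the other histones, of which 0 were then called higher. The alternatives for the order, the library places and the replication and assembly lists were chosen after seeing the data. The cause of each shift was not tested.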
